A study of Mus musculus with 12 samples.

Results

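The developing mouse lung changed the splicing of 7 genes whose products organise the actin and microtubule cytoskeleton or act in the signalling and membrane traffic around it: *Macf1*, *Enah*, *Arhgef2*, *Nexn*, *Baiap2*, *Arfip1* and *Bnip2*. They were picked by symbol out of the 16152 genes of the count table, with 13 alternative splicing (AS) events named for them in the event lists of the study, and 12 of these events passed the coverage rule described below. Since the lists were drawn up from the splicing differences in these same 12 libraries, all splicing values are given as a description and without a test, whereas gene expression was tested across all genes. The event lists were in part sorted by whether the gene was differentially expressed in the same comparison, so the share of the 7 genes called for their level is not independent of how they were chosen.

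Whole-lung RNA of male and female C57BL/6 mice, with no treatment named in the labels, was sequenced in 3 libraries for each of 4 ages: E15.5 and E18.5 (embryonic days), then P5 and P8 (postnatal days). These time-points lie on either side of birth, from the branching of the airways to the formation of new alveoli. At each time-point the 3 replicates were littermates, so that litter and time-point cannot be told apart and the spread between libraries is that within a litter. In bulk tissue, fewer cells of a type and less RNA per cell cannot be told apart either.

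The count table held between 41337443 and 53901957 counts per library, and the events that passed the coverage rule had a median of 119 reads per library. Every one of the 5 epithelial, 5 endothelial and 5 fibroblast markers was above 1 CPM (reads of a gene per 1000000 mapped reads) in all 12 libraries. Marker sums of heart muscle, skeletal muscle and thymus differed widely between some libraries of the same age. The source of this RNA was not tested. The summed CPM of 7 heart muscle markers was 993.6 and 1232.6 in E15.5 replicates 1 and 2 and 59.2 in replicate 3, against 62.8 to 98.4 at E18.5, 107.9 to 258.0 at P5 and 109.3 to 352.0 at P8. The 6 skeletal muscle markers summed to 530.2 CPM in P8 replicate 1, 140.6 in P8 replicate 2 and 163.4 in P5 replicate 3, and to at most 48.5 in the other libraries. The 6 thymus and T cell markers summed to 146.5 and 284.5 CPM in P8 replicates 1 and 2 and to 13.2 in replicate 3. Between the embryonic and postnatal libraries the 5 leukocyte markers went from a range of 64.1 to 81.8 CPM to a range of 1842 to 2637 CPM, and the 5 endothelial markers from 643.8 to 996.2 CPM to 1673 to 2030 CPM. Most of the leukocyte sum was *Lyz2*, which alveolar type 2 cells express too, while the pan-leukocyte gene *Ptprc* went from at most 6.92 CPM to at least 42.6 CPM. The part of these cell types in the splicing and expression values below was not tested.

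A cell shapes itself through actin filaments, which push and pull at its edge, and through microtubules, which run inward and carry cargo. *Macf1* encodes a giant spectraplakin that crosslinks both, *Enah* (Mena) an Ena/VASP protein that helps actin filaments grow, and *Arhgef2* (GEF-H1) a RhoA activator held on microtubules. *Nexn* encodes nexilin, an actin-binding protein of muscle and of cell-matrix adhesions, and *Baiap2* (IRSp53) a membrane-bending I-BAR protein that acts downstream of Cdc42 and Rac1. *Arfip1* encodes arfaptin-1, which binds Arf and Arl proteins on Golgi membranes, and *Bnip2* a BCH-domain protein of cell signalling. Several of these genes are known to be spliced differently in muscle, nerve or epithelial cells, where short exons that keep the reading frame add or remove a stretch of the protein.

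In mm10 the genes lie at chr4:123349633-123684360 (*Macf1*, minus strand), chr1:181896384-182019990 (*Enah*, minus strand), chr3:88605966-88648052 (*Arhgef2*, plus strand), chr3:152236982-152266350 (*Nexn*, minus strand), chr11:119942763-120006782 (*Baiap2*, plus strand), chr3:84496093-84582625 (*Arfip1*, minus strand) and chr9:69989466-70008317 (*Bnip2*, plus strand). GENCODE M21 annotates 23 internal exons in them that at least 1 other transcript of the gene skips, of which 21 have a length divisible by 3 and 6 are shorter than 30 bases. *Macf1* holds 4 of these 6 short exons and *Enah* the other two, while *Arhgef2* has no such exon in this annotation. The files analysed here give no coordinates for the splicing events, so no printed exon is tied to one event.

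The annotated skipped exons of *Macf1* under 30 bases are printed to show how small a piece of so large a transcript can be switched. All lie within the coding sequence and are read 5′ to 3′ on the minus strand, at chr4:123364057-123364074 (18 bases), chr4:123368821-123368832 (12 bases), chr4:123368821-123368835 (15 bases, an alternative of the 12-base exon) and chr4:123386549-123386557 (9 bases).
Macf1, 18 bases: ttcttcctcggcaatcag
Macf1, 12 bases: ctatgcccggaa
Macf1, 15 bases: cagctatgcccggaa
Macf1, 9 bases: atcacagag

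*Baiap2*, *Arfip1* and *Bnip2* have 1 exon event each and 1, 2 and 2 annotated skipped exons, and those printed here are the ones with a length divisible by 3. The *Baiap2* exon (chr11:120003038-120003085, plus strand, 48 bases) carries the end of a coding sequence, with its 25 coding bases in capitals. The *Arfip1* exons (chr3:84529170-84529265 and chr3:84529191-84529265, minus strand, 96 and 75 bases, both coding) share the 75 bases in capitals and differ by 21 bases at the 3′ end. The *Bnip2* exon (chr9:70004306-70004341, plus strand, 36 bases) is coding throughout.
Baiap2, 48 bases: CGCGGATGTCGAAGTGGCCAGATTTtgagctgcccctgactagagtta
Arfip1, 96 bases: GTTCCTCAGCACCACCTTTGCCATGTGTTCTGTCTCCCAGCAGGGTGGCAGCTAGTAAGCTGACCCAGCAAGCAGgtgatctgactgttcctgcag
Arfip1, 75 bases: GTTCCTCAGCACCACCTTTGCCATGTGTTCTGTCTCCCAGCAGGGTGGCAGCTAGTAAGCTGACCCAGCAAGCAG
Bnip2, 36 bases: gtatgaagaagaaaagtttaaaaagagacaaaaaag

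All called PSI differences of the 7 genes lay in comparisons of an embryonic with a postnatal time-point. Splicing was measured as the percent spliced in (PSI), the share of transcripts that include an exon, keep an intron or use a given splice site. The minimum value (MV) is the PSI difference that is exceeded with a probability of 0.95 given the reads. An event was called different when its MV was at least 10%, with the sign given as later minus earlier time-point. The main MV was taken over the 3 library pairs matched by replicate number. MVs with libraries left out were taken over all remaining pairs, so they are to be read beside the MV over all 9 pairs. From E15.5 to P5, 10 of the 12 events were called (4 with a higher and 6 with a lower PSI at P5), beside 0.0643% of all 331318 events. Between E15.5 and P8 the count was 6 (background 0.0643%). Starting from E18.5 it was 7 against P5 (3 higher, 4 lower, background 0.0498%) and 6 against P8 (background 0.0513%). Between E15.5 and E18.5 and between P5 and P8 no member event was called, beside 0.0106% and 0.00483% of all events. Nothing is read from these counts, because the same differences put the events on the list.

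The largest step in mean PSI between neighbouring time-points spanned birth for 9 of the 12 events and came before it for the other 3. These are the *Baiap2* exon and the pair of *Enah* splice sites, which mirror each other. The step across birth covered more days than either other step, and the events were listed for such differences. Nothing is therefore read from this count, and it was not taken over all events. In 8 of the 12 events the 6 embryonic libraries lay wholly on one side of the 6 postnatal ones, which held for 0.324% of all events. The exceptions were the *Nexn* exon, the *Baiap2* exon and the *Enah* splice sites. For the pair of *Enah* sites the highest MV in any comparison was 11%, just inside the threshold, and no tested member event lay just outside it.

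**Figure D1:**
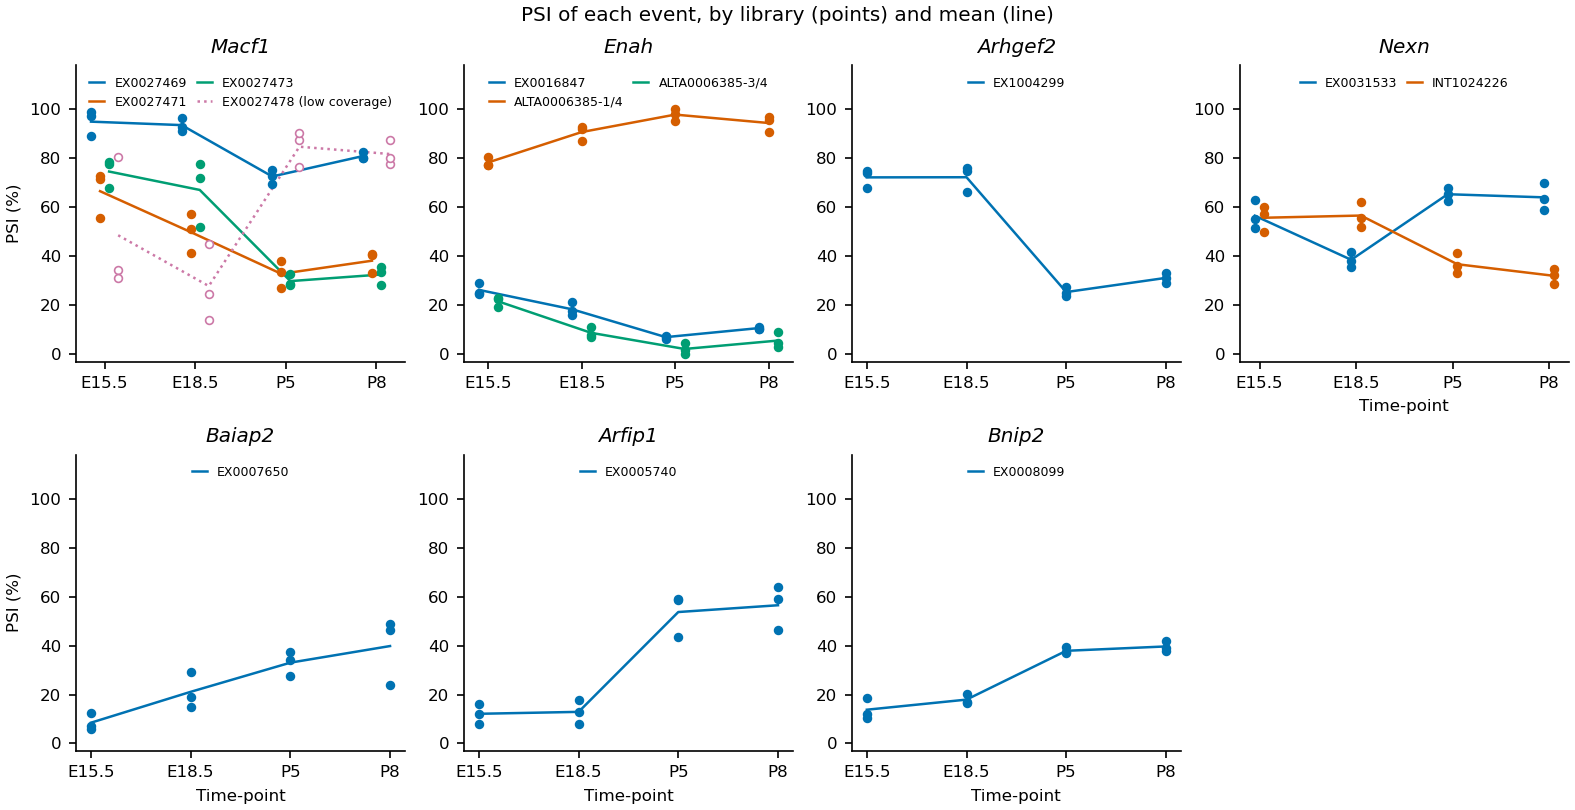
PSI (percent, y axis) of the 13 events of the 7 genes against the 4 time-points; points are libraries, lines join the means of 3, and open points with a dotted line mark the *Macf1* event that failed the coverage rule. The *Arhgef2* exon drops from a mean of 72.3 to 25.4% between E18.5 and P5, while the *Arfip1* and *Bnip2* exons climb from 12.9 to 53.7% and from 17.9 to 37.8%.

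*Macf1* had the most events. The E15.5 libraries included exon MmuEX0027473 in 78.3, 77.8 and 67.7% of transcripts and the E18.5 libraries in 51.9, 71.8 and 77.6%. At P5 the values were 28.7, 28.3 and 32.6%, and at P8 they were 35.7, 33.8 and 28.2%. All 6 embryonic libraries were thus above all 6 postnatal ones, with the widest spread at E18.5, where replicate 1 stood lowest. Against P5 the MV was -29% for E15.5 and -18% for E18.5. The latter was -16% over all 9 pairs and -35% without E18.5 replicate 1. From E18.5 to P8 the MV of -10% was at the threshold. It was -13% over all 9 pairs, -31% without E18.5 replicate 1 and -18% without P8 replicates 1 and 2. Uncorrected junction reads gave -9% and the downstream junction alone -7%, both under the threshold, and the upstream junction alone gave -11%. Both of its inclusion junctions gave like values, 73.3 and 74.5% at E15.5 against 29.5 and 30.1% at P5.

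A second *Macf1* exon, MmuEX0027471, had a mean PSI of 66.6 ± 9.69% (SD, n = 3, as for all errors of means below) at E15.5 and 49.9 ± 7.85% at E18.5, and after birth one of 32.8 ± 5.58% (P5) and 38.2 ± 4.43% (P8). Its values were 72.9, 71.4 and 55.4% at E15.5, the lowest being replicate 3, the library of that age with the lowest heart marker sum. At E18.5, 58.8% of its whole change from E15.5 to P8 was reached. The MV from E15.5 to P5 was -12%, and -15% over all 9 pairs. It was -28% without E15.5 replicate 3 and -19% without P5 replicate 3. From E15.5 to P8 the MV was -10%, and -11% over all 9 pairs. It dropped under the threshold to -9% without E15.5 replicate 1, E15.5 replicate 2 or P8 replicate 1. Without both of these E15.5 libraries it was -7%, and without E15.5 replicate 3 it was -23%. The deposited PSI rests on corrected reads: its uncorrected junction reads gave 25.7 and 41.4% at E15.5 and 8.04 and 14.2% at P5, a lower level with the same direction, and an MV of -6%, which is not called.

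Exon MmuEX0027469 of *Macf1* was included in nearly every transcript before birth. The E15.5 libraries had 97.2, 89.0 and 98.7%, those of E18.5 91.3, 96.5 and 92.9%, those of P5 75.4, 69.7 and 72.7% and those of P8 80.3, 80.03 and 82.4%. The lowest embryonic library was above the highest postnatal one. The MV was -13% from E15.5 to P5, and -10% over all 9 pairs. It was -9% without E15.5 replicate 1, E15.5 replicate 3 or P5 replicate 2, and -20% without E15.5 replicates 1 and 2. From E18.5 to P5 it was -12%. Neither comparison with P8 was called, with an MV of -3% from E15.5 and -6% from E18.5. For this exon the file gives 1 inclusion count, so its 2 sides could not be compared.

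The fourth *Macf1* exon, MmuEX0027478, failed the coverage rule because of E15.5 replicate 2, and entered no count above. Its PSI ran the opposite way to the other three, at 34.3, 80.5 and 31.0% in the E15.5 libraries and 13.8, 44.9 and 24.8% at E18.5. The P5 libraries had 87.7, 90.2 and 76.3% and the P8 libraries 77.8, 79.96 and 87.5%. Only 12 to 65 reads supported it at E15.5, and the high value of replicate 2 overlapped with the postnatal range.

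Unlike its exons, the level of *Macf1* RNA could be tested. The E15.5 libraries held 242.7, 131.9 and 275.6 CPM of *Macf1* and the E18.5 libraries 497.3, 545.6 and 376.0 CPM. After birth the values were 1232, 1031 and 1269 CPM in the P5 and 799.3, 831.4 and 874.8 CPM in the P8 libraries. No 2 time-points overlapped. The rule for a call was an absolute log2 fold change above 1 together with a false discovery rate (FDR) under 0.05 in edgeR's quasi-likelihood test over all 15994 genes tested. *Macf1* rose by a log2 fold change of 1.13 ± 0.22 (standard error, SE) from E15.5 to E18.5 (FDR 0.00505) and by 1.40 ± 0.22 from E18.5 to P5 (FDR 0.000101). From P5 to P8 the log2 fold change of -0.51 ± 0.22 did not pass (FDR 0.119). The first of these calls depended on E15.5 replicate 2, the library with the least *Macf1*: without it the log2 fold change was 0.87 (FDR 0.00548), and without E15.5 replicates 1 and 2 it was 0.77 (FDR 0.0517).

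Gene level and PSI together give an inferred level of each form, the CPM of the gene multiplied by the share of the form. For MmuEX0027473 the form with the exon was at 314 ± 69.4 CPM before birth (E18.5) and 353 ± 60.6 CPM after it (P5), and the form without it at 159 ± 77.8 and 824 ± 74.5 CPM. The additional *Macf1* RNA after birth was therefore mostly RNA that skips this exon, with a ratio of means of 5.18 for the skipping form and 1.12 for the including form. These forms carry the splicing values that chose the event, so their ratios have no test.

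*Enah* had a changed splicing pattern too, but unlike *Macf1* a gene level that stayed within a narrow range. Exon MmuEX0016847 was included in 25.2, 29.0 and 24.7% of transcripts at E15.5 and in 21.4, 17.5 and 16.1% at E18.5. In the P5 libraries it was at 7.03, 7.57 and 6.35% and in those of P8 at 10.3, 10.4 and 11.3%. Every embryonic library was above every postnatal one, and the largest step was from E18.5 to P5. Against E15.5 the MV was -13% for P5 and -9% for P8, under the threshold in the latter, and between E18.5 and P5 it was -5%.

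The second switch of *Enah* was a choice between alternative 3′ splice sites. Of the 4 sites of event MmuALTA0006385, site 2 was at 0% in all 12 libraries and site 4 in all but E18.5 replicate 3 (1.60%), so that sites 1 and 3 shared the reads and mirror each other. Site 3 was used in 22.6, 19.5 and 22.9% at E15.5 and in 7.89, 7.14 and 11.2% at E18.5. At P5 it was used in 4.63, 0 and 1.82%, and at P8 in 4.50, 9.24 and 3.01%. It had thus already dropped before birth, and the E18.5 and P8 libraries overlapped. The reads behind an *Enah* site value were 70 to 133 per library, and the 0% of P5 replicate 2 rests on 103 reads, which allow a share of up to 2.91% (3 counts, counting error only). The MV of site 3 was -11% from E15.5 to P5, -10% over all 9 pairs and -9% without P5 replicate 2. The MV of site 1 was 11% in that comparison, 10% over all 9 pairs and 9% without P5 replicate 2.

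For the gene itself the means were 106.8 ± 4.77, 108.0 ± 4.64, 100.7 ± 5.80 and 96.6 ± 5.12 CPM from E15.5 to P8. In none of the 6 comparisons was the FDR of *Enah* under 0.05 (edgeR, FDR 0.154 to 0.916, with unadjusted p of 0.125 to 0.904). The log2 fold change from E15.5 to P5 was 0.01 ± 0.06, with the sign changing under library-size scaling. The inferred form with MmuEX0016847 was at 19.8 ± 3.24 CPM in E18.5 and 7.04 ± 0.95 CPM in P5 lungs, a ratio of 0.356, and the form without it at 88.2 ± 4.42 and 93.6 ± 4.98 CPM, a ratio of 1.06.

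*Arhgef2* had a lower PSI in every postnatal than in every embryonic library. Exon MmuEX1004299 was included at 73.9, 75.0 and 67.7% at E15.5 and 75.9, 66.3 and 74.7% at E18.5. The P5 libraries had 23.7, 25.1 and 27.4% and the P8 libraries 31.1, 33.3 and 29.1%. The embryonic libraries were all at 66.3% or above and the postnatal ones all at 33.3% or below, with no difference in mean between E15.5 and E18.5 beyond their spread (72.2 ± 3.92 and 72.3 ± 5.24%). The MV was -34, -31, -35 and -27% in the 4 comparisons across birth and 0% in both others, and no library left out ended a call. The PSI rests almost wholly on the downstream side of the exon, so its level is uncertain. Over all libraries 1340 reads covered the downstream junction and only 2 the upstream one. In the 4 comparisons across birth the upstream junction alone gave an MV of 0%, and the downstream one -32, -28, -33 and -24%. Inclusion was thus not seen from both sides, and GENCODE M21 annotates no skipped exon in this gene. From the downstream junction alone the mean PSI was 83.8, 83.7, 40.5 and 47.5% in order of age.

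The level of *Arhgef2* RNA was 103, 89.2 and 104 CPM in the E15.5 libraries and 121, 113 and 111 CPM in those of E18.5. It was 153, 154 and 153 CPM in the P5 and 162, 161 and 183 CPM in the P8 libraries. The groups stood in the order of age without overlap. The FDR was under 0.05 in 5 of the 6 comparisons, with a log2 fold change of 0.50 ± 0.07 from E18.5 to P5 (edgeR, FDR 4.19e-05) and 0.12 ± 0.07 from P5 to P8 (FDR 0.264), and none was above the fold cutoff. In inferred levels the form without the exon was at 31.8 ± 5.43 CPM before and 114 ± 2.81 CPM after birth (P5 over E18.5, ratio 3.60), and the form with it at 83.1 ± 8.44 and 38.9 ± 2.87 CPM (ratio 0.468). By the deposited PSI, the 2 forms thus exchanged their order between E18.5 and P5. At P8 the downstream junction alone gave a mean PSI of 47.5%, with 127 inclusion and 127 skipping reads in P8 replicate 2.

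An exon of *Nexn* had a lower PSI at E18.5 than at the other time-points. MmuEX0031533 was included at 62.9, 55.1 and 51.6% at E15.5 and at 38.1, 35.8 and 41.8% at E18.5, with no overlap. It was back at 68.0, 62.8 and 65.3% at P5 and at 63.3, 58.8 and 70.1% at P8, above every E18.5 library but overlapping with E15.5. Against E18.5 the MV was 18% for P5 and 17% for P8, and it was 0% between E15.5 and either postnatal time-point. From E15.5 to E18.5 it was -5%, and -7% over all 9 pairs. It reached -10% without E15.5 replicate 3 or without E18.5 replicate 3.

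An intron of *Nexn*, MmuINT1024226, was the only retained intron among the events. The E15.5 libraries kept it in 49.9, 60 and 57.4% of transcripts and the E18.5 libraries in 62.1, 55.7 and 52.2%. The P5 libraries kept it in 41.2, 33.0 and 36.1% and the P8 libraries in 32.5, 35.0 and 28.6%. All embryonic libraries were above all postnatal ones. The MV of -12% from E18.5 to P5 was -9% over all 9 library pairs in place of the 3 matched ones, and -8% without E18.5 replicate 1, E18.5 replicate 2, P5 replicate 2 or P5 replicate 3. From E18.5 to P8 the MV was -15%. From E15.5 to P5 it was -4%, and -7% over all 9 pairs. It was -13% without E15.5 replicate 1, -11% without P5 replicate 1 and -12% without E15.5 replicates 1 and 2.

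At the RNA level *Nexn* was the only member with a drop past both cutoffs. The E15.5 libraries held 107, 107 and 94.7 CPM and the E18.5 libraries 125, 110 and 122 CPM. The P5 libraries held 62.4, 71.1 and 75.3 CPM and the P8 libraries 46.9, 43.8 and 58.3 CPM, with no overlap between time-points. From E18.5 to P8 it fell, with a log2 fold change of -1.19 ± 0.10 (edgeR, FDR 3.87e-07). With P8 replicates 1 and 2 left out, the libraries with high thymus and skeletal muscle marker sums, the log2 fold change was -0.97, just short of the fold cutoff. Between E18.5 and P5 the log2 fold change was -0.69 ± 0.10 (FDR 4.77e-05). Nexilin is abundant in heart muscle. *Nexn* was at 107 CPM in the E15.5 libraries with heart marker sums of 993.6 and 1232.6 CPM, and at 94.7 CPM in that with 59.2. At E18.5, with sums of 62.8 to 98.4 CPM, it was at 110 to 125 CPM. Among the P8 libraries it was lowest in replicate 2 (43.8 CPM, heart sum 352.0) and highest in replicate 3 (58.3 CPM, heart sum 109.3). The relation of these markers to *Nexn* was not tested.

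The inferred forms of *Nexn* had unequal ratios of P5 over E18.5. With the exon, RNA was at 45.9 ± 5.97 CPM before and 45.4 ± 3.44 CPM after birth (ratio 0.989), and without it at 72.9 ± 3.82 and 24.2 ± 3.66 CPM (ratio 0.332). The form that keeps the intron was at 67.4 ± 8.83 and 25.4 ± 1.88 CPM (ratio 0.378), and the form that removes it at 51.4 ± 5.95 and 44.2 ± 6.45 CPM (ratio 0.859).

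The *Baiap2* exon had a higher mean PSI at each later time-point. Exon MmuEX0007650 was included in 6.08, 7.13 and 12.3% of transcripts at E15.5 and in 29.4, 14.8 and 19.1% at E18.5. The P5 libraries had 27.5, 34.0 and 37.5% and the P8 libraries 46.5, 48.9 and 24.01%. The E15.5 libraries were below all others, and E18.5, P5 and P8 overlapped with their neighbours. From E15.5 to E18.5 the MV was 0%. In that step the mean PSI rose by 3.82 percentage points from the upstream junction alone and by 22.2 from the downstream one. E18.5 replicate 1, the highest of its group, had 6 upstream and 36 downstream inclusion reads. These values do not settle whether the change began before birth. The MV was 14% from E15.5 to P5, the only call of this exon, and 11% over all 9 pairs. It was 9% without E15.5 replicate 1 or without P5 replicate 3 and 7% without E15.5 replicates 1 and 2. The upstream junction alone gave an MV of 5% in this comparison, under the threshold, and the downstream junction alone gave 20%. P8 replicate 3 was the low library of its group. The MV from E15.5 to P8 was 5%, 8% over all 9 pairs and 27% without this library. From E18.5 to P8 these MVs were 0, 0 and 10%. Coverage was low, with 48 to 148 reads per library.

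The *Baiap2* gene level was 24.05, 22.4 and 24.96 CPM in the E15.5 libraries and 25.04, 24.8 and 20.9 CPM in those of E18.5. It was 35.9, 40.8 and 38.4 CPM in the P5 and 44.5, 45.6 and 44.7 CPM in the P8 libraries. The embryonic time-points overlapped, and both postnatal ones were above them and apart from each other. Against E18.5 its log2 fold change was 0.79 ± 0.08 at P5 (edgeR, FDR 1.85e-06) and 0.99867 ± 0.08 at P8 (FDR 2.11e-07), the latter next to the fold cutoff of 1. The exon-containing form, by inference, was at 2.04 ± 0.89 CPM at E15.5 and 17.9 ± 6.26 CPM at P8 (ratio 8.77), and the form without the exon at 21.8 ± 0.87 and 27.0 ± 6.01 CPM (ratio 1.24).

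*Arfip1* had a higher PSI in every postnatal than in every embryonic library. Exon MmuEX0005740 was included in 16.2, 8.13 and 12.1% of transcripts at E15.5 and in 17.9, 8 and 12.9% at E18.5. The values were 58.6, 43.6 and 58.8% at P5 and 63.7, 59.1 and 46.5% at P8. No embryonic library was above 17.9% and no postnatal library under 43.6%. The MV was 31, 30, 30 and 29% in the 4 comparisons across birth and 0% within either side, and no library left out ended a call. Upstream and downstream junctions gave like values, 12.12 and 11.99% at E15.5 against 51.0 and 55.4% at P5.

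The RNA of *Arfip1* was at a low and nearly even level, with means of 8.93 ± 1.04, 8.12 ± 0.86, 6.75 ± 0.06 and 7.89 ± 0.47 CPM. Only the difference from E15.5 to P5, a log2 fold change of -0.31 ± 0.13, had an FDR under 0.05 (edgeR, FDR 0.0421). It was no longer under 0.05 with DESeq2's size factors, with DESeq2, or without single libraries, among them any 1 of those at P5. The form with the exon was inferred at 1.05 ± 0.44 CPM before and 3.62 ± 0.57 CPM after birth (P5 over E18.5, ratio 3.45), and the form without it at 7.07 ± 0.86 and 3.13 ± 0.61 CPM (ratio 0.443).

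*Bnip2* took the same course with a smaller step. Exon MmuEX0008099 was included in 18.8, 10.45 and 12.2% of transcripts at E15.5 and in 20.3, 16.8 and 16.6% at E18.5. The P5 libraries had 37.3, 37.0 and 39.3% and the P8 libraries 41.9, 37.9 and 39.1%. The highest embryonic library (20.3%) and the lowest postnatal one (37.0%) were well apart. The MV was 15, 20, 14 and 17% in the 4 comparisons across birth, and no library left out ended a call. The downstream junction alone gave 8.57% at E15.5 and 24.1% at P5, lower than the upstream junction with 14.6 and 40.7%, and MVs against P5 of 8% (E15.5) and 7% (E18.5), under the threshold. The level of the 2 sides thus differed, and both were higher after birth.

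As RNA, *Bnip2* had 91.5, 105 and 83.4 CPM in the E15.5 and 84.9, 90.3 and 92.0 CPM in the E18.5 libraries. It had 123, 129 and 138 CPM in the P5 and 110, 112 and 127 CPM in the P8 libraries. The postnatal libraries were all above the embryonic ones, and the neighbours within each side overlapped. Between E18.5 and P5 the log2 fold change was 0.63 ± 0.08 (edgeR, FDR 1.25e-05). The form with the exon was inferred at 15.9 ± 1.16 CPM before and 49.2 ± 4.29 CPM after birth (P5 over E18.5, ratio 3.09), and the form without it at 73.2 ± 4.80 and 80.7 ± 3.18 CPM (ratio 1.10).

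**Figure D2:**
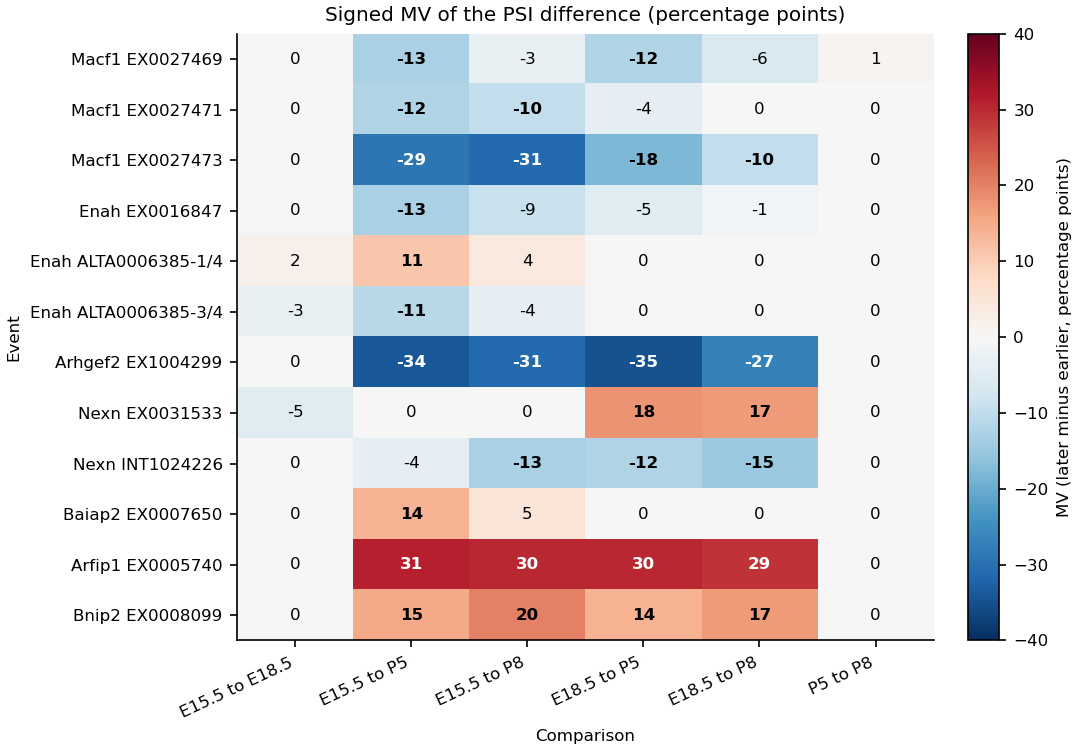
Signed MV of the PSI difference (percentage points, later minus earlier time-point, colour scale) for the 12 tested events (rows) in the 6 comparisons (columns), with values of at least 10 in bold. The comparisons across birth hold all bold values, from -35 for the *Arhgef2* exon to 31 for the *Arfip1* exon, and the outer columns hold none.

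**Figure D3:**
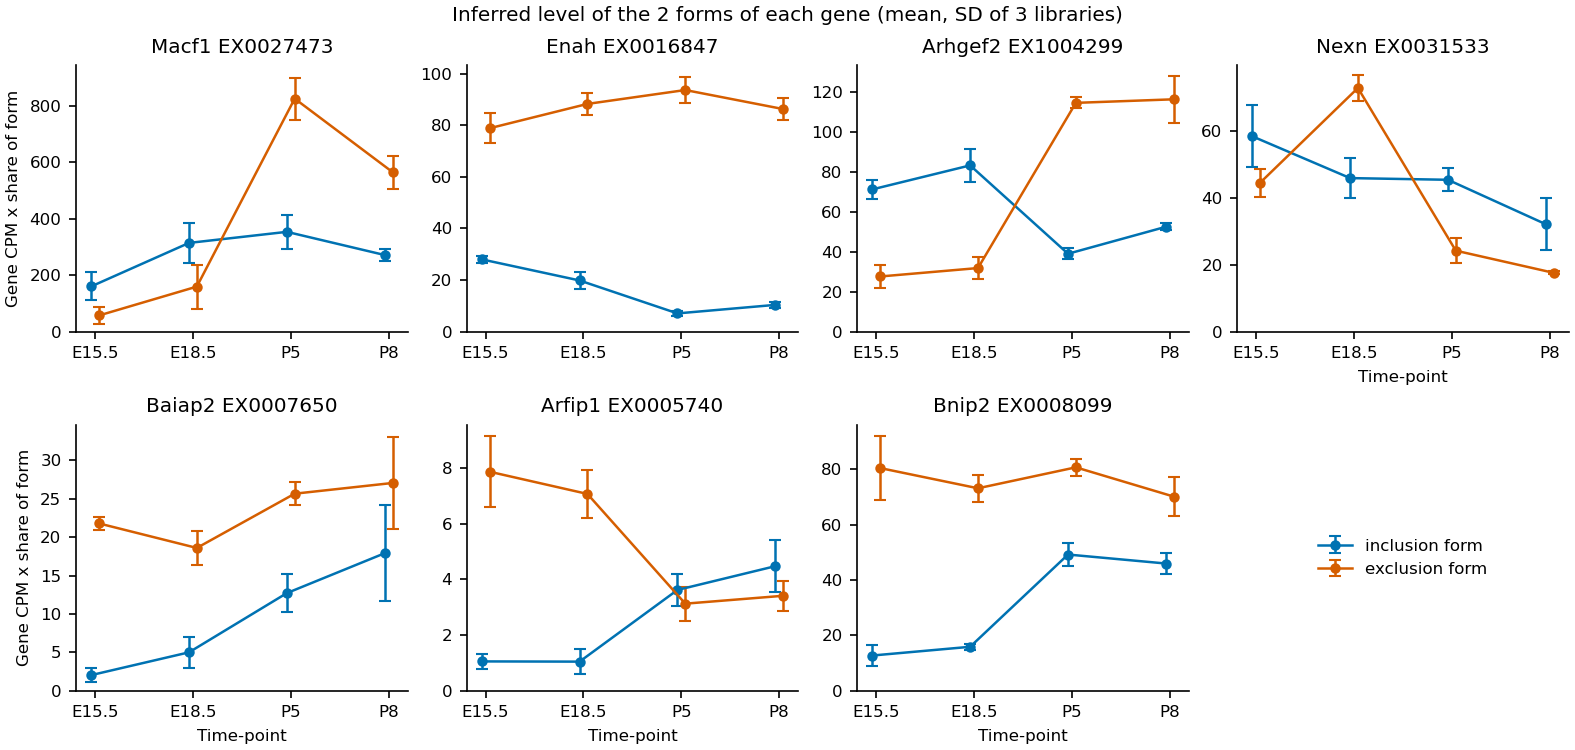
Inferred level of the inclusion form (blue) and exclusion form (orange) of 1 exon per gene, as gene CPM multiplied by the share of the form (y axis), at 4 time-points (x axis), with means and SD of 3 libraries. In *Arhgef2* the forms, by the deposited PSI, cross between E18.5 (83.1 and 31.8 CPM) and P5 (38.9 and 114 CPM). The exclusion form of *Bnip2* stays between 70.2 and 80.7 CPM.

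Set side by side, only *Macf1* and *Nexn* were called for their level. Between the embryonic time-points 1 of the 7 genes was past both cutoffs (*Macf1*), beside 3.04% of all genes tested. Against E15.5, *Macf1* alone passed at P5 (background 31.8%) and at P8 (background 32.3%). Against E18.5, *Macf1* passed at P5 (background 26.8%) and *Nexn* at P8 (background 29%). Nothing is read from these shares, because the choice of the events took differential expression into account. From P5 to P8 no member passed both cutoffs in edgeR or in DESeq2, beside 2.96% of all genes, with 4 of 7 at an unadjusted p under 0.05.

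Without the fold cutoff, at an FDR under 0.05 alone, 6 members passed from E15.5 to P5 (4 higher, 2 lower), beside 75.1% of all genes. By the same rule 5 passed between E15.5 and P8 (background 76.3%), and against E18.5 there were 5 at P5 (background 71.1%) and 5 at P8 (background 73.7%), each with 4 higher and 1 lower. From E15.5 to E18.5 there were 2, both higher (background 21.5%), and from P5 to P8 there was 1, *Nexn*, which was lower (background 18%). The median log2 fold change of the 7 genes was 0.50 from E18.5 to P5, against -0.002366 over all genes tested.

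**Figure D4:**
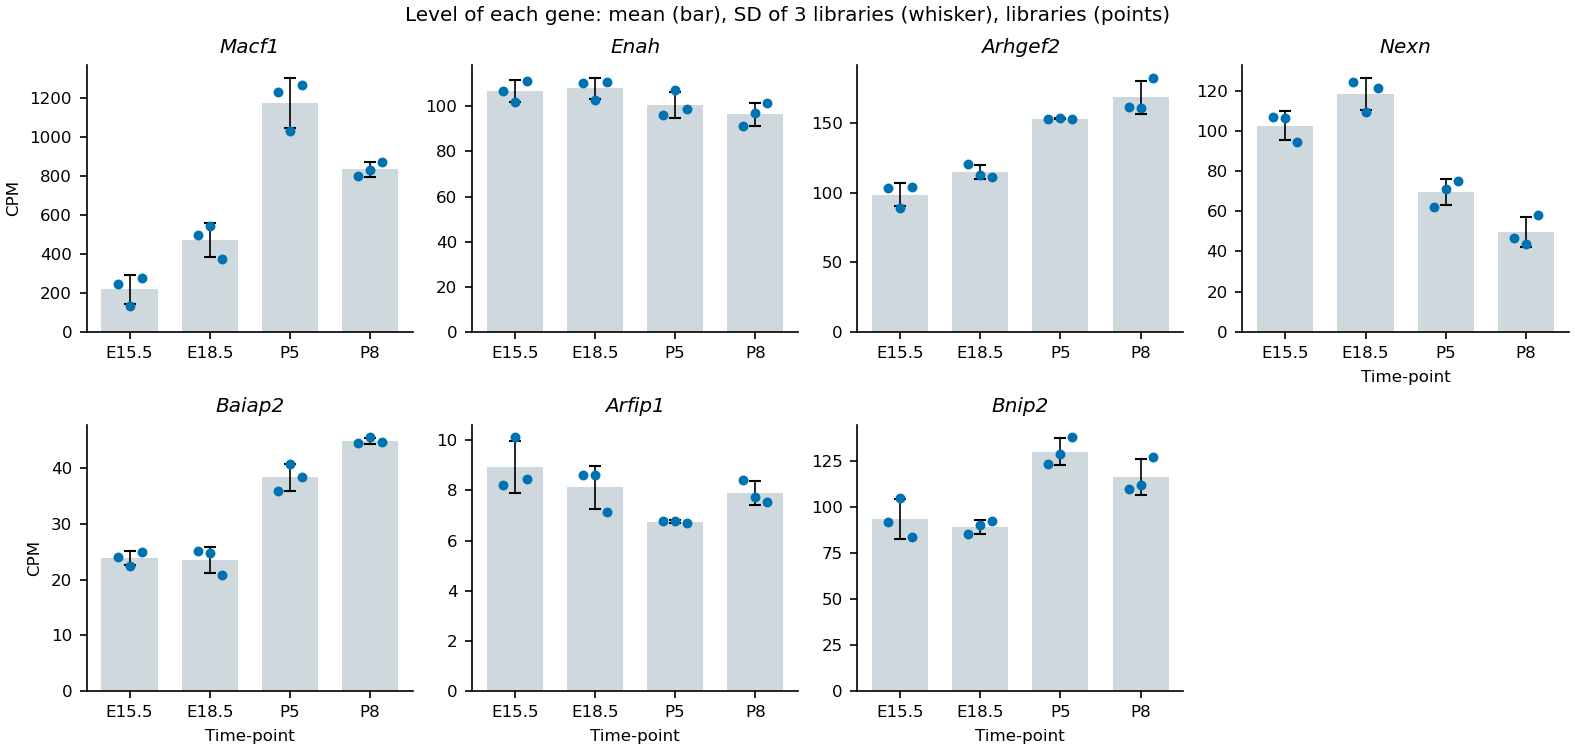
Gene level in CPM (y axis, starting at 0) of the 7 genes at the 4 time-points; bars are means, whiskers SD of 3 libraries and points the libraries. *Macf1* climbs from a mean of 473 CPM at E18.5 to 1177 CPM at P5, *Nexn* drops from 119 to 49.7 CPM between E18.5 and P8, and *Enah* stays between 91.2 and 111.5 CPM in all libraries.

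The partners of the 7 proteins were examined in 7 lists of 98 genes chosen by known role, of which 96 were tested. From E18.5 to P5, 13 of the 96 were past both cutoffs (6 higher, 7 lower; 13.54%, beside 26.8% of all genes), with a median log2 fold change of 0.20. In the wider comparison of E15.5 with P8 there were 21 (15 higher, 6 lower; 21.88%, beside 32.3% of all genes), and from P5 to P8 there were 2 (2.083%, beside 2.96%).

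Among the 15 plakins and microtubule plus-end partners of *Macf1*, 1 rose and 1 fell past both cutoffs from E18.5 to P5 (median 0.09). *Dst*, the spectraplakin closest to *Macf1*, had 71.6 ± 9.43 CPM before and 165 ± 16.5 CPM after birth, a difference of 1.29 ± 0.13 on the log2 scale (FDR 1.62e-06). *Gas2l3*, which links actin and microtubules in dividing cells, went from 32.8 ± 4.87 to 14.3 ± 0.48 CPM (-1.11 ± 0.14, FDR 1.22e-05). The pair of spectraplakin genes thus rose together in these libraries.

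Of the 11 Ena/VASP family members and partners of *Enah*, 1 rose and 1 fell (median 0.09). *Apbb1ip* (RIAM), a Rap1 effector of leukocytes and platelets, went from 1.48 ± 0.27 to 12.6 ± 2.58 CPM (3.18 ± 0.23, FDR 9.7e-08), beside the higher level of *Ptprc* after birth. *Pfn2*, a profilin that supplies actin to Ena/VASP proteins, went from 69.3 ± 6.10 to 23.6 ± 0.93 CPM (-1.46 ± 0.07, FDR 7.44e-09). The relation of the leukocyte genes to *Apbb1ip* was not tested.

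In the list of 16 genes of RhoA signalling around *Arhgef2*, 1 gene fell and none rose past both cutoffs, with a median of 0.49. The FDR alone was under 0.05 for 14 of 16, beside 71.1% of all genes. *Ect2*, the RhoA activator of cell division, went from 102 ± 0.93 to 38.6 ± 1.21 CPM (-1.32 ± 0.06, FDR 3.63e-09). It went the other way from *Arhgef2*, which encodes a RhoA activator too.

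For *Baiap2* the list of I-BAR, WAVE and Arp2/3 genes had 22 tested genes, of which 2 fell and none rose (median 0.18). *Wasf1*, a WAVE protein that switches on the Arp2/3 complex, went from 14.4 ± 2.29 to 5.08 ± 0.84 CPM (-1.42 ± 0.15, FDR 2.9e-06). *Baiap2l2*, an I-BAR paralog, went from 2.27 ± 0.53 to 0.94 ± 0.28 CPM (-1.17 ± 0.31, FDR 0.00477), while *Baiap2* itself had a positive log2 fold change of 0.79.

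None of the 8 arfaptin partners of *Arfip1* passed both cutoffs in edgeR or DESeq2 from E18.5 to P5 (median -0.09). An unadjusted p under 0.05 (edgeR) was found for 7 of 8, while 71.1% of all genes had even an FDR under 0.05. Of the 8 tested BCH-domain genes and partners of *Bnip2*, 1 fell (median -0.22): *Cdon*, a cell surface receptor that binds BNIP2, went from 51.1 ± 5.18 to 20.1 ± 0.83 CPM (-1.26 ± 0.10, FDR 1.88e-07) and was at 36.9 ± 2.65 CPM at P8.

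Of the 16 linkers of actin to adhesions and to the muscle Z-disc around *Nexn*, 4 were higher and 1 lower past both cutoffs (5 of 16, beside 26.8% of all genes; median 0.32). *Pdlim3*, a PDZ-LIM protein that binds alpha-actinin, went from 17.7 ± 1.33 to 119 ± 10.7 CPM (2.84 ± 0.14, FDR 5.98e-09). *Xirp2*, a muscle actin-binding protein, had no count in any E18.5 library and 0.177 to 1.12 CPM at P5, at least 28.4-fold higher (against a floor of 3 counts over the E18.5 group; FDR 0.0142). Without P5 replicate 3, its highest library, the bound was 13.7-fold, and without this library, P8 replicate 1 or P8 replicate 2 the gene was under the low-count filter and had no test. *Nexn* went the other way from both. Skeletal muscle marker sums were 4.67 to 5.73 CPM at E18.5 and 6.90 to 163.4 CPM at P5, and their part in these values was not tested.

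**Figure D5:**
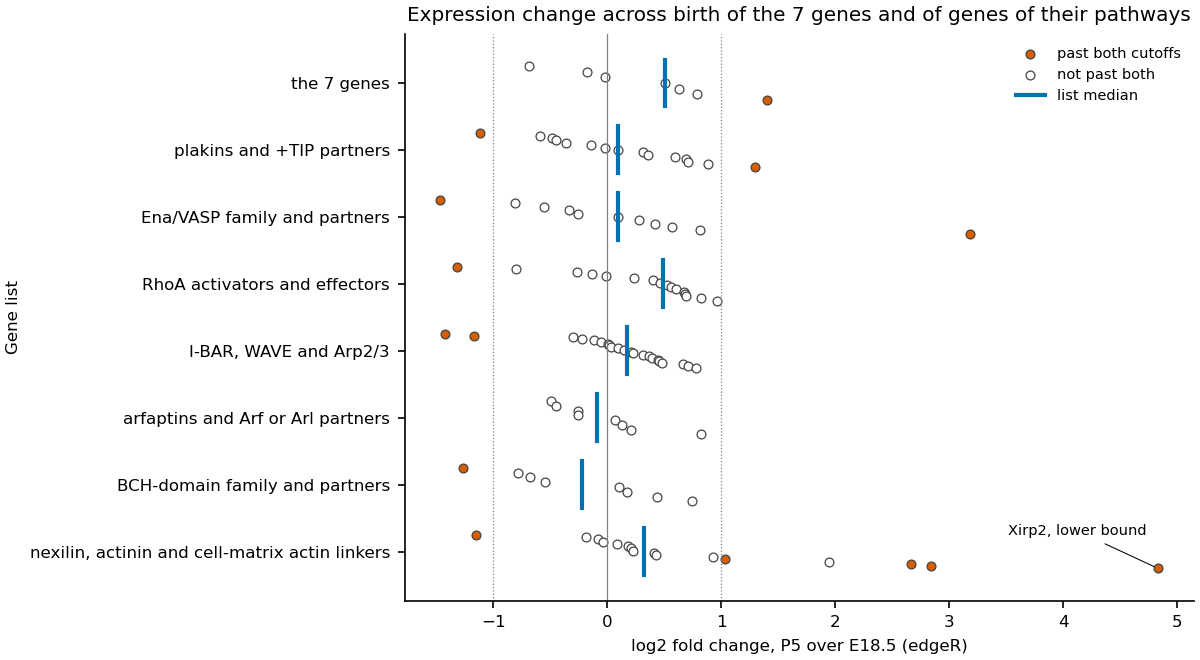
Log2 fold change of P5 over E18.5 (x axis, edgeR) of the 7 genes and of the genes of 7 partner lists (rows); filled points are past both cutoffs, blue bars are list medians, dotted lines mark the fold cutoff and *Xirp2* is drawn at its lower bound. *Apbb1ip*, *Pdlim3* and *Xirp2* lie far to the right, and the medians run from -0.22 to 0.50.

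The genes whose level followed each member most closely were found by Pearson's r of log2(CPM + 1) over the 12 libraries, among 10623 genes with a mean of at least 10 CPM. The points share libraries and time-points, so r is a description. *Macf1* was followed by *Tmem245* (r = 0.994) and *Stard9*, a kinesin gene (r = 0.992), and *Arhgef2* by *Vcl*, which encodes the adhesion protein vinculin (r = 0.995), and *Iqsec1*, an activator of Arf proteins (r = 0.993). *Nexn* ran with *Gjc1*, a connexin gene (r = 0.986), and *Tbca*, a tubulin chaperone (r = 0.985). *Baiap2* ran with *Ssh3*, a phosphatase of the cofilin pathway (r = 0.989), and the epithelial keratin *Krt7* (r = 0.988), and *Bnip2* with *Ndfip1* (r = 0.974) and *Laptm4a* (r = 0.973). For the flat genes the highest values were lower, 0.937 for *Enah* with *Ccnt2* and 0.874 for *Arfip1* with *Apba3*.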

How the data were processed

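Whole lung RNA was sequenced in 12 libraries. The authors aligned reads to mm10 with TopHat2 2.1.1 and Bowtie2 2.3.4, counted them per gene with HTSeq 0.10.0 and deposited raw counts. The deposited CPM values are counts per 1000000 mapped reads. The authors' VAST-TOOLS table gives PSI as a percent for 661162 events, with corrected and raw junction reads.

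The members, partner lists and tests were chosen with earlier results of these data known. Expression was tested with edgeR 4.0.16 (TMM, quasi-likelihood, one fit over the 4 time-points, Benjamini-Hochberg) on genes that reached 1 CPM in 3 or more libraries. The total counts per library, 41337443 to 53901957, set the counting precision. MVs were recomputed from Beta distributions of the corrected reads plus 1, with libraries matched by number. With libraries left out, all remaining library pairs were used. Events without a coverage score in any library, or under 10 reads in 3 or more, were left out. Exons came from GENCODE M21 (mm10). Named partners were the 2 largest log2 fold changes per list past both cutoffs from E18.5 to P5, and named similar genes the 2 highest r per member. Both calculations were tested on simulated data. DESeq2 1.42.0, other scalings, no filter, other MV thresholds, single junctions and left-out libraries served as alternatives. RT-PCR samples were not analysed here.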

Additional observations from a re-analysis of the deposited data

How the results depend on the processing

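At an FDR under 0.05 alone, the counts of the 7 genes were 2, 6, 5, 5, 5 and 1 in the comparisons in the order used above (E15.5 with E18.5, P5 and P8, E18.5 with P5 and P8, P5 with P8). From E15.5 to P8 the count was 2 in place of 1 with library size only, with DESeq2's size factors and with DESeq2, and from E18.5 to P8 it was 2 with DESeq2's size factors, DESeq2 and the replicate block, where *Baiap2* lies next to the fold cutoff. It was 0 from E15.5 to E18.5 with E15.5 replicates 1 and 2 left out, and 0 from E18.5 to P8 with P8 replicates 1 and 2 left out; both of these settings, and the reads recovered from the CPM table, were chosen after seeing the data. With 1 library left out the counts ran from 0 to 1, 1 to 1, 1 to 3, 1 to 1, 1 to 2 and 0 to 0. Called member events were 1 from E15.5 to E18.5 at an MV of 5%, and at an MV of 20% they were 3 for P5 against E15.5, 2 for P5 against E18.5 and 2 for P8 against E18.5. With 1 library left out they ran from 0 to 1, 7 to 11, 5 to 8, 6 to 7, 6 to 7 and 0 to 0. Partner genes at an FDR under 0.05 alone were 24, 79, 76, 70, 74 and 23 of 96. The shares of all genes were 21.5, 75.1, 76.3, 71.1, 73.7 and 18%. Past both cutoffs with 1 library left out, partner genes ran from 0 to 2, 18 to 20, 20 to 23, 10 to 14, 15 to 18 and 2 to 3.

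Signs turned only for log2 fold changes near 0 that were not called. For *Enah* these were, with E15.5 replicates 1 and 2 left out, -0.0523 at E18.5 and -0.0691 at P5 against E15.5, then -0.0779 with library size only at P5 and 0.000246 at P8 with P8 replicates 1 and 2 left out. Between E18.5 and P5 they were 0.00405 with DESeq2's size factors and 0.00393 with DESeq2. *Baiap2* between the embryonic time-points gave 0.00156, 0.00119 and 0.00575 with DESeq2's size factors, with DESeq2 and with P8 replicates 1 and 2 left out. *Arfip1* between E18.5 and P8 gave -0.0245 with library size only and -0.0536 with those P8 libraries left out, and *Bnip2* between the embryonic time-points gave 0.0881 with E15.5 replicates 1 and 2 left out. With 1 library left out, *Enah* ran from -0.00916 to 0.0613 (E15.5 with E18.5), -0.0249 to 0.0447 (E15.5 with P5) and -0.0570 to 0.00834 (E18.5 with P5), *Baiap2* from -0.0616 to 0.0784, *Arfip1* from -0.170 to 0.000144 (E15.5 with P8) and -0.0624 to 0.0836 (E18.5 with P8), and *Bnip2* from -0.129 to 0.0325. The cause was not tested.

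The replicate numbers did not pair the libraries: of 18 pairs with the same number 4 had deviations correlated above 0.1 (-0.29 to 0.26), and in no comparison did all. Among the 7 genes the replicate block changed the 1 call given above, and it moved the partner genes called between E18.5 and P5 from 13 to 14. Depth limits, among others, the *Baiap2* exon, the *Enah* sites and the *Macf1* exon that failed the coverage rule.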
